A study of Drosophila melanogaster with 6 samples.

Results

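Among the transcripts of whole Drosophila melanogaster larvae, 220 were brighter on the arrays of controls 1 and 2 and irradiated 3 than on those of control 3 and irradiated 1 and 2, with the means of the 2 sets on the log2 scale at least 2.38-fold apart. They were chosen from 25796 transcript identifiers on the array, of which 19368 were measured (well above background on at least 3 of the 6 arrays), so they make up 1.14% of the measured transcripts. Both sets of arrays mix irradiated and control larvae, so the split is not the comparison that the study was built on. A member had to be well above background on controls 1 and 2 and irradiated 3 and higher on each of these than on any of the others. Throughout, controls 1 and 2 and irradiated 3 are called the high arrays, the other 3 the low arrays, and a level is log2 of the processed signal minus the 75th percentile of the same array. Because these levels chose the members, they are given as a description and carry no test.

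The 6 samples are RNA of whole larvae of the wild-type strain Oregon-R, each hybridised to its own 1-colour array. Eggs were kept for 24 h, 20 larvae were then moved to each new vial, and both groups shared an incubator. The 3 irradiated samples had received 0.1 Gy of chronic gamma rays, begun in the first larval instar at a rate of 16.7 mGy/h, and the 3 controls 0 Gy. Every label gives an age of 5 days, which is also the age given for the mothers of the eggs, so the age of the larvae at collection is not certain. The labels give neither the sex of the larvae, nor how many larvae an RNA sample holds, nor whether replicates came from separate vials, so the spread between samples may be biological or technical.

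As background, male and female larvae of this species differ most in their gonads. The testis of a late larva is far larger than the ovary and is filled with spermatocytes, which switch on a large set of genes that other tissues hardly use, many of them needed only after meiosis to build sperm. Outside the gonad, males differ by the dosage compensation complex, which raises transcription of their single X chromosome and contains the male-specific roX RNAs. RNA of a whole-larva sample therefore depends on how many males it holds and on how far their testes have grown. In such bulk RNA, fewer cells of a type and less RNA per cell cannot be told apart.

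Few of the 220 can be named. The array files give identifiers without gene symbols. Of the members, 197 carry a FlyBase transcript identifier (FBtr), 8 a TC consensus number and 7 a clone name that starts with AT. The prefix IP occurs for 2, and the prefixes FI, MIP, CK and A for 1 each. Another 2 carry a RefSeq accession. The last 2 matched the gene table, as CG2127 on chromosome 2R and CG32450 on chromosome 3L. Over the whole array 369 identifiers matched 1 symbol, 271 of them measured.

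The medians show the split that the rule set, and irradiated 3 at the top. The median level of the 220 was -5.28 on control 1, -4.97 on control 2 and -4.41 on irradiated 3, against -6.30 on control 3, -6.48 on irradiated 1 and -6.21 on irradiated 2. Irradiated 3 was the highest array for 217 members (98.6%), against 20.6% of all measured transcripts. Irradiated 1 was the lowest for 128 (58.2%), control 3 for 61 (27.7%) and irradiated 2 for 31 (14.1%). Over all measured transcripts these arrays were lowest for 18.1%, 13.5% and 11.4%. Under the rule only a high array can be the highest of a member and only a low array the lowest. The difference between the 2 means had a median of 1.37 (2.59-fold) and reached 2.84, with 158 members under 1.5 and 11 at 2 or more. The split as such was found for 9.69% of the measured transcripts at any size, and from this nothing is read about the members, since the rule used it. With the 2 sets exchanged, the same rule took 23 transcripts (0.119%), and 6.1% were separated in that direction at any size.

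**Figure D1:**
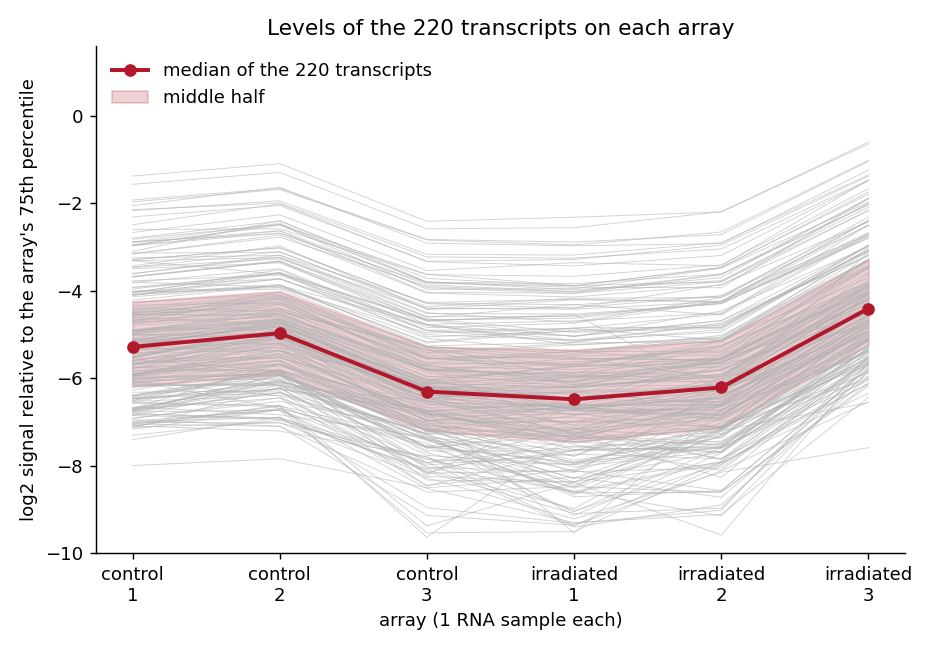
Each grey line is 1 of the 220 transcripts, with its level (log2 signal relative to the 75th percentile of the array) on the 6 arrays; the red line is the median and the band the interquartile range. The lines rise and fall between the sets as the rule requires, with medians near -5 on controls 1 and 2, between -6.48 and -6.21 on the 3 low arrays and -4.41 on irradiated 3.

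All 220 were dim to moderate transcripts. Their mean on the high arrays ran from -7.24 to -1.02 with a median of -4.90, and 210 lay below the median of all measured transcripts, which was -2.13. On the low arrays many sank towards background, with 185 still well above it on control 3, 153 on irradiated 1 and 197 on irradiated 2, and 15 on none of these 3. The 150 members that were well above background on all 6 arrays had a median difference of 1.35 (2.54-fold). With each low level raised at least to the lowest signal well above background on its array, the fold of the 220 had a median of 2.498. By this measure 200 members still differed at least 2-fold. A transcript can fail to be well above background at a higher signal than this, so the raised fold is no strict lower bound. The sets overlapped in the percentage of gene spots that were well above background, with 75.8%, 77.7% and 79.3% on the high arrays and 79.4%, 76.8% and 81.1% on the low ones. No spot was saturated, and the 75th percentiles stood at signals between 1287 and 1607.

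**Figure D2:**
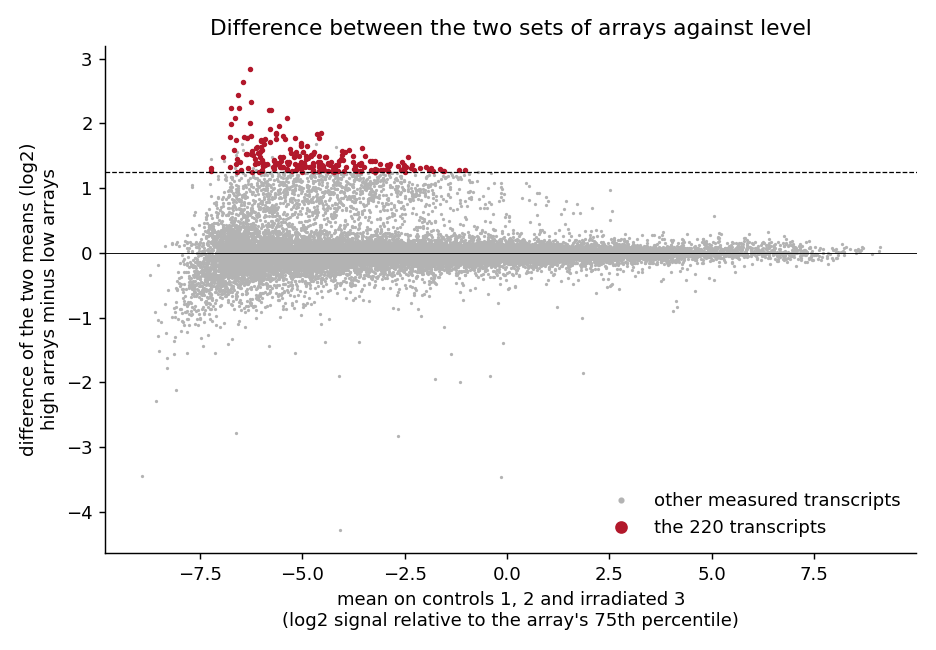
Each point is a measured transcript, with its mean level on the high arrays on the x axis and the difference of the high minus the low arrays (log2) on the y axis; the dashed line marks the limit of the rule. The 220 members (red) lie above the line at levels from -7.24 to -1.02, over a dense band of other transcripts around 0 and a thinner cloud that reaches up to the line.

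The rule used the average over the probes of a transcript, so the values of single probes describe the members and support nothing further. Of the 53 members with several probes, which hold 115 probes, 106 probes separated the 2 sets of arrays without overlap, and for 44 members all probes did. The probes differed by a median of 1.37 between the sets (0.63 to 3.37), and those of the same member lay a median of 0.21 apart. Of the 454 member spots, 237 (52.2%) lay in the upper of 2 equal parts of the 532 rows of the array. Columns and smaller regions were not examined. Within each slide the direction was fixed by the rule, and only the sizes are given. On the slide that carried the 3 controls and irradiated 1, the mean of controls 1 and 2 exceeded the mean of control 3 and irradiated 1 by a median of 1.199, and on the other slide irradiated 3 exceeded irradiated 2 by 1.79. Array positions were 4, 3 and 3 for the high arrays and 2, 1 and 4 for the low ones.

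The order within each set was no condition of the rule, but the level on irradiated 3 enters the mean that had to pass the limit, which favours transcripts that are high there. The following shares are therefore partly set by the choice of members. Among the high arrays, irradiated 3 was above control 2 and control 2 above control 1 for 192 of the 220 (87.3%), an order found for 23.3% of all measured transcripts. Irradiated 3 exceeded the mean of controls 1 and 2 by a median of 0.81 (1.75-fold, interquartile range 0.69 to 0.95), against 0.01 over all measured transcripts. Among the low arrays the orders were more mixed. The most common, irradiated 2 above control 3 above irradiated 1, applied to 81 members (36.8%, against 18.4% of all measured), and irradiated 1 and 2 together differed from control 3 by a median of 0.04.

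**Figure D3:**
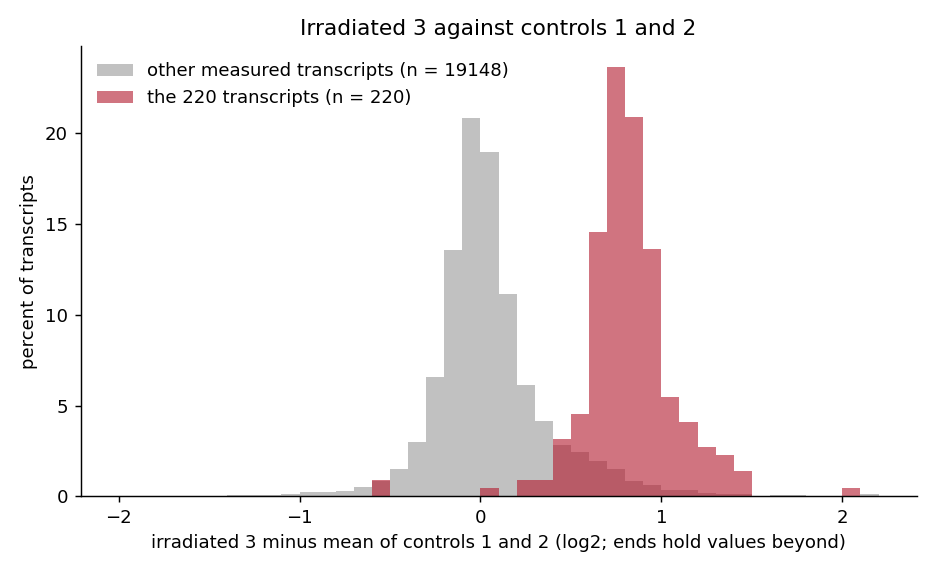
The x axis is the level on irradiated 3 minus the mean of controls 1 and 2 (log2), and the y axis the percent of transcripts per bin, for the 220 members (red) and the 19148 other measured transcripts (grey). The members centre on 0.81 and the others near 0, and the 2 distributions overlap.

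With the rule applied to 5 arrays, the array left out fell on its own side for most of the transcripts chosen. Without irradiated 3 the rule took 75 transcripts, of which 66 (88%) had irradiated 3 above every low array. Without control 1 it took 546, of which 495 (90.7%) had control 1 above every low array, and without irradiated 2 it took 335, of which 325 (97.0%) had irradiated 2 below every high array. Over the 6 arrays this share ran from 88% to 98.3%. Among transcripts separated on the other 5 arrays at any size it ran from 57.8% to 82.7%. The split itself had been proposed from all 6 arrays, so these shares are a description and no independent check.

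CG2127 and CG32450, the members with a symbol, are protein-coding genes that are known by number only. The level of CG2127 was -1.92, -1.66 and -1.04 on controls 1 and 2 and irradiated 3, and -2.82, -2.89 and -2.71 on control 3 and irradiated 1 and 2. The high arrays lay 2.41-fold above the low ones, and CG2127 was among the 3 brightest members. CG32450 stood at -4.03, -3.59 and -3.20 on the high arrays in the same order, and at -4.91, -5.03 and -4.68 on the low arrays. Its high arrays too lay 2.41-fold above the low ones, and both genes were well above background on every array.

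The 2 brightest members without a symbol had the same profile. FBtr0081028 stood at -1.37, -1.09 and -0.60 on the high arrays and at -2.41, -2.32 and -2.20 on the low ones, and FBtr0087107 at -1.57, -1.29 and -0.64 against -2.58, -2.56 and -2.19. The members of the greatest measured difference were much dimmer. FBtr0081583 was at -6.55, -6.62 and -5.65 on the high arrays, and at -9.38, -8.38 and -9.59 on the low ones, where it was not well above background. With its low levels raised as above, the high arrays lay 2.26-fold higher, against the 7.16-fold measured. FBtr0082952 was at -7.00, -6.89 and -5.48 on the high arrays, and at -8.96, -9.32 and -9.02 on the low ones, likewise not well above background. Its difference was 1.99-fold with the low levels so raised.

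The limit of the rule cuts through a continuous range. The 2 members just inside it (FBtr0077946 and FBtr0074849) both differed 2.38-fold, and the 2 transcripts just outside (FBtr0303652 and FBtr0334889) both 2.37-fold. Between the limit and a difference of 1.0 lay 358 more transcripts that were separated in the same way and well above background on all high arrays, 8 of them with a symbol, which are named here because they have one and not by the rule for named genes, except hale.

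The only measured gene of the spermatogenesis list was among these 8. This gene, hale (hale-bopp), belongs to the comet and cup genes, whose transcripts appear late in sperm formation and gather at the end of the spermatid tail. Its level was -6.49, -6.36 and -5.81 on the high arrays and -7.41, -7.62 and -7.26 on the low ones, where it was well above background on 1 array. Its measured 2.31-fold difference was 2.11-fold with the low levels raised as above. Of the other 95 genes of the list, soti and Prosbeta4R2 were identified on the array but were not measured, and the rest could not be matched to an identifier.

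Among the remaining 7, CG9875 lay closest to the limit, at -3.63, -3.29 and -2.75 against -4.76, -4.41 and -4.15 (2.33-fold). The reticulon-like gene Rtnl2 differed by 1.01, with -5.75, -5.49 and -4.91 on the high arrays, and its irradiated 2 value of -5.77 nearly reached control 1. The other 5 were non-coding RNAs, all from the X chromosome: lncRNA:CR43279 (difference 1.13), lncRNA:CR32657 (1.09), lncRNA:CR32690 (1.08), lncRNA:CR32661 (1.06) and the antisense RNA asRNA:CR43299 (1.02). The brightest of them, lncRNA:CR43279, stood at -1.499, -1.18 and -0.72 on the high arrays and at -2.45, -2.32 and -2.03 on the low ones. In all 5 irradiated 3 exceeded the mean of controls 1 and 2, by 0.45 to 0.72.

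**Figure D4:**
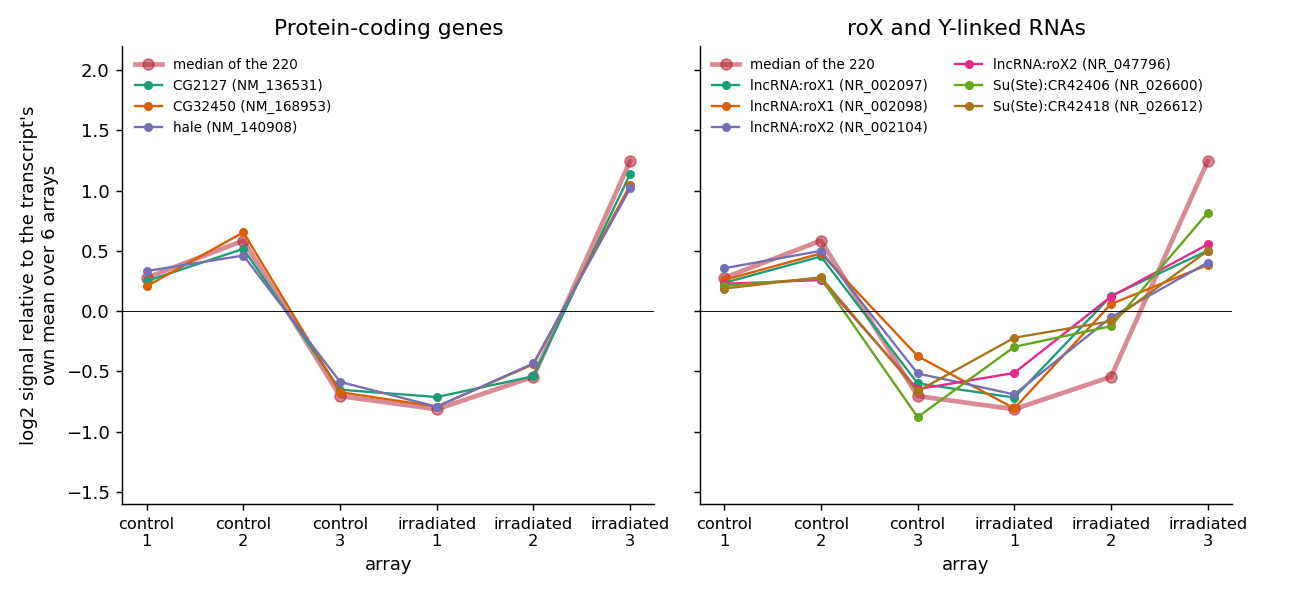
The y axis is the log2 signal relative to the mean of the same transcript over the 6 arrays, on the x axis; thick red lines are the median of the 220 members. On the left, CG2127 and CG32450 are members and follow the median by the rule, and hale, which is no member, follows it too. On the right, the roX and Su(Ste) RNAs share the rise on controls 1 and 2 and the drop on control 3. They lie above the members on irradiated 2 and below them on irradiated 3, where the rule partly set the levels of the members.

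A small number of identifiers are clone names. Some of these record the library that a clone was isolated from, not where the RNA of these larvae was made. In the naming of the Berkeley cDNA collections, some prefixes of 2 letters before 5 digits stand for a library, AT for adult testis. That naming is background knowledge and not part of the data. The members IP04475, IP06528, FI08052 and MIP20164 have names of similar form but were placed in no library. Only the prefixes with a library are grouped here. This grouping was made after the values had been seen. Of the 85 AT clones measured, 7 were members (8.24%, against 1.14% of all measured transcripts), and none of the 465 measured clones from ovary, embryo, adult head, Schneider cell, or larval and early pupal libraries was. The high arrays exceeded all low arrays for 30 AT clones (35.3%) and for 20 of the other clones (4.3%), against 9.69% of all measured transcripts. In the opposite direction stood 4.71% of the AT clones and 6.24% of the others.

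The AT clones fell into a group near 0 and a long upper tail. Their difference had a median of 0.21 and a range from -0.63 to 1.84, with 32 clones (37.6%) at 0.5 or more, against 1.94% of the other clones and 7.30% of all measured transcripts. The ovary (GM) clones, 58 in number, had a median of -0.03 and a highest value of 0.81, and medians of the other 7 libraries lay between -0.14 and 0.01. AT clones were dim, with median levels between -5.01 and -4.08 over the arrays. The TC consensus transcripts were about as dim (-5.07 to -4.86), and 2.69% of these were separated in the direction of the rule and 8.08% in the opposite one. Irradiated 3 exceeded the mean of controls 1 and 2 by a median of 0.32 over the AT clones and by -0.06 over the other clones.

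The AT clone of the greatest difference, AT15627, was singled out after its values were seen. Its level was -5.14, -4.70 and -4.07 on the high arrays and -6.19, -6.64 and -6.60 on the low ones, a 3.58-fold difference, and it was well above background throughout. The brightest AT member, AT30951, also picked after the fact, was at -2.05, -1.64 and -1.24 against -2.91, -2.97 and -2.92. The other 5 differed by 1.29 to 1.80. All 7 had the order irradiated 3, control 2, control 1 from the top.

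**Figure D5:**
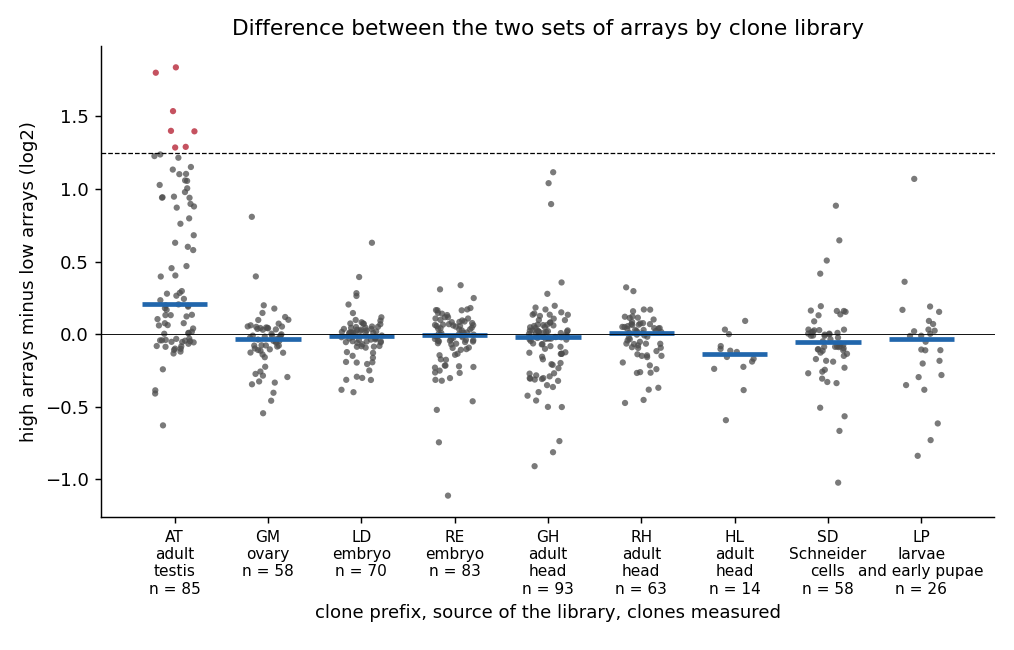
Each point is a measured clone of a grouped library. It is placed by the prefix of its name and the source of its library (x axis). The y axis is its difference between the high and low arrays (log2). Blue bars are medians, red points are members, and the dashed line marks the limit of the rule. The 7 members shown all lie in the adult testis library, whose upper tail reaches 1.84. Of the 465 clones of the other libraries, 9 reach 0.5. The members IP04475, IP06528, FI08052 and MIP20164 were placed in no library and are not shown.

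The male-specific roX RNAs, which guide the dosage compensation complex to the X chromosome, were higher on the high arrays but not by enough to be members. One roX1 identifier (NR_002097) stood at 1.28, 1.4998 and 1.55 on controls 1 and 2 and irradiated 3, and at 0.45, 0.33 and 1.17 on control 3 and irradiated 1 and 2. The other (NR_002098, 3 probes) was at 1.59, 1.81 and 1.72 against 0.96, 0.53 and 1.39. Irradiated 2 thus lay closer to the high arrays than control 3 and irradiated 1 did for roX1. For the members the rule itself placed irradiated 2 low.

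For roX2, NR_002104 was at -2.38, -2.23 and -2.33 on the high arrays and at -3.25, -3.42 and -2.79 on the low ones. The identifier NR_047796 was at -0.68, -0.64 and -0.35 against -1.55, -1.42 and -0.78. Irradiated 3 exceeded the mean of controls 1 and 2 by 0.16 and 0.01 for roX1 and by -0.03 and 0.31 for roX2, below the median of 0.81 of the members. The roX RNAs thus showed the split that the rule set for the 220. The rule also favoured a high irradiated 3 and required a low irradiated 2 among the members. The contrasts with roX on these 2 arrays are therefore a description, and no distinction is read from them.

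Transcripts of the Y chromosome, which males alone carry, were chosen as a group after the values had been seen. Of 5 identifiers that the gene table places there, 3 were measured. All 3 separated the sets in the direction of the rule, CG40635 at levels near background. Su(Ste):CR42418 and Su(Ste):CR42406 belong to the Suppressor of Stellate repeats, whose small RNAs silence the Stellate genes in the testis. Su(Ste):CR42418 was at -1.98, -1.89 and -1.67 on the high arrays and at -2.83, -2.39 and -2.25 on the low ones (1.56-fold). Su(Ste):CR42406 was at -5.89, -5.83 and -5.28 against -6.98, -6.40 and -6.22 (1.82-fold). These RNAs come from repeated, near-identical copies, so the probes cannot assign signal to a single copy. CG40635 was at -7.32, -6.49 and -6.04 against -7.49, -8.51 and -7.46, and was well above background on 4 of the 6 arrays. How many males or how much testis each RNA sample held was not measured, and its part in these levels was not tested.

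Markers of other tissues and of stage could be identified for few genes. The digestive proteases Jon65Aiii and epsilonTry, bright transcripts of the larval gut, differed between the high and the low arrays by -0.02 and -0.01. The trypsin alphaTry differed by -0.07, with 2.47, 2.24 and 2.78 on the high arrays and 2.28, 2.55 and 2.87 on the low ones. ImpE3, an ecdysone-inducible gene of imaginal discs, differed by 0.10, its arrays overlapping (-5.24 to -4.85). No measured identifier matched a gene of the germ line, ovary, female soma, fat body, salivary gland, haemocyte, muscle or neuron lists, so the share of those tissues and the stage of the larvae were not assessed.

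Between irradiated and control larvae, no member was called at an adjusted p of 0.05, nor was any of the 19356 features tested in limma (0% called). The median difference of the 220 was -0.09, against -0.00 over all features, with 171 members lower and 49 higher in irradiated larvae. As 2 of the 3 high arrays are controls, the rule itself pushes members towards lower values after irradiation, and the direction is not read. No member had an unadjusted p under 0.05, against 1816 features (9.38%) of all tested. Without irradiated 3 the number was 38 of the 220 members, against 1405 of 19356 features. The high arrays left are then both controls, so the rule itself sets members apart between the groups, and nothing is read from the 38. The spread of the members within each group was wide by choice, with a median residual SD of 0.94 against 0.12 over all features. CG2127 differed by -0.08 ± 0.59 SE (n = 3 per group, limma adjusted p = 0.993) and CG32450 by -0.13 ± 0.59 (adjusted p = 0.986).

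Differences were likewise small beside their errors for hale (-0.14 ± 0.55 SE, limma adjusted p = 0.981) and for the roX RNAs, whose 4 identifiers differed by -0.24 to 0.11 (limma adjusted p 0.910 to 0.992). The median of the members rested on single arrays. It was -0.75 without irradiated 3, -0.48 without control 3, 0.30 without irradiated 1, 0.17 without control 2, 0.15 without irradiated 2 and 0.02 without control 1. With slide as a fixed block, where the contrast within the first slide rests on irradiated 1 alone, it was -0.88, and no feature was called.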

How the data were processed

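Whole-larva RNA was measured on 6 Agilent 1-colour arrays, 3 per group. The deposited spot intensity had been background-corrected within its array by Agilent Feature Extraction 11.5.1.1, per the file headers (9.1 per the submitters' processing notes), with no scaling across arrays. A further deposited table gives, per probe, the linear ratio to its own median over the 6 arrays, with unknown array scaling, and served as an alternative.

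Levels are log2 of the processed signal of the 43602 gene spots minus the 75th percentile of the array, averaged per identifier. An identifier counted as well above background if the fraction of its spots so marked reached 0.5. Outlier-flagged spots (44 to 113 per array) were kept for choosing members, of which 3 had one, and left out of the fit. Identifiers were matched without versions to accessions, names and synonyms of the RefSeq gene table of the Release 6 assembly.

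The groups of the labels were compared with limma 3.58.1 in R 4.3.3 (two-sided, Benjamini-Hochberg over all 19356 features with a value on every array, at least 3 arrays well above background). The fit was tested on simulated data. Members, lists and the rule for named genes (members with a symbol, roX RNAs, up to 4 measured markers per list, the 2 unnamed members of largest difference and the 2 brightest) were chosen with earlier results of these data known. Clone libraries, the chromosomes (the Y included), the exchanged sets and the members above background on all arrays were added after seeing the data.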

Additional observations from a re-analysis of the deposited data

How the results depend on the processing

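The 220 became 133 when arrays were scaled by their median, which lowered the difference of all transcripts by about 0.10, 66 with the deposited value table and 0 with normexp (offset 50 on the median signal, the mean signal not being in the files). The mean of the high arrays exceeded that of the low arrays for 220 of 220 under each of these settings. The sets did not overlap for 220, 196 and 210 of them, against 6.50%, 3.43% and 10.3% of all measured transcripts. Median differences of the members were 1.28, 1.18 and 0.47. The members were chosen by this split on the same arrays, so these values are a description and no check. A limit of 1.0 gave 578 and of 1.5 gave 62 transcripts, and exchanging the sets 23. Leaving out each array gave 75 to 546, the count moving most without irradiated 3 (75), control 1 (546) and irradiated 2 (335). Spot and probe rules gave 186 to 240. Adult testis clones were separated in 27, 36 and 19 of 85 cases with array medians, normexp and the value table, and other clones in 12, 18 and 4 of 465. Of all measured transcripts, 6.50%, 10.3% and 3.43% were separated under these settings.

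No setting called a feature between irradiated and control larvae, the features at an unadjusted p under 0.05 ranging from 690 to 2327. Among the 220 members their number was 38 without irradiated 3 (1405 of all features), 4 with normexp (2327) and 1 with the value table (690). It was 0 under the other settings, leaving aside slide as a block, where the contrast rests on irradiated 1 alone. The median of the members, -0.09, was 0.0070 with the value table, where the median of all features also moved, from -0.00 to 0.091, -0.08 over the 150 members above background on all arrays, and -0.75 to 0.30 without each array. The replicate block left it at -0.09 with 0 calls. Deviations from the group means correlated at -0.22, -0.14 and -0.54 between arrays of equal number, so the numbers were not taken as pairs. With the value table CG2127 was at 0.017 and roX1 (NR_002097) at 0.034, and with slide as a block roX2 (NR_047796) at -0.46. Leaving out each array gave -0.66 to 0.26 for CG2127, -0.68 to 0.24 for CG32450 and -0.68 to 0.22 for hale. For roX1 it gave -0.37 to 0.28 (NR_002097) and -0.50 to 0.10 (NR_002098), and for roX2 -0.54 to 0.062 (NR_002104) and -0.19 to 0.39 (NR_047796). The causes were not tested. Raising the low levels to the lowest signal well above background on each array lowered the fold for 76 members.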

Other observations

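The 23 transcripts of the opposite direction covered a wider range of levels. These on the low arrays ran from -7.24 to 3.71 in the mean, and their difference from -4.28 to -1.27 with a median of -1.57. None has a symbol here. Their medians were -4.01 on control 3, -2.69 on irradiated 1 and -6.51 on irradiated 2, against -7.01, -6.69 and -6.65 on controls 1 and 2 and irradiated 3. The median of irradiated 2 thus lay next to those of controls 1 and 2 and irradiated 3, although each of the 23 was separated.

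Of the 38 measured features that the gene table places on the X chromosome, 13 (34.2%) had the high arrays above all low arrays. The counts were 3 of 43 on 2R, 4 of 48 on 2L, 8 of 63 on 3L and 4 of 72 on 3R. Over all measured features with a symbol it was 35 of 271 (12.9%). The 13 include the 4 identifiers of 2 roX genes and the 5 non-coding RNAs named above, so they are not independent genes. Only identifiers with a symbol enter these counts, so they do not speak for whole chromosomes.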
